A study of Mus musculus with 16 samples.

Results

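A set of 9 genes outside the classic drug-metabolism families is described here across 16 mouse kidney libraries: Acy3, Ldc1, Mfsd2a, Sec14l3, Rnf24, Chrna4, Nhp2, Eif1ad4 and Perm1. They are 9 of 30277 genes in each deposited table and were picked by name because their values were much lower in kidneys of Kl/Kl mice. The choice used the comparison of Kl/Kl with control within each table and no numeric threshold, so those differences are given as a description, without a test. Polyadenylated RNA came from perfused whole kidneys of mice of the inbred strain 129S1/SvlmJ, aged 44 to 54 days, and all groups share that strain background. The Kl/Kl groups, homozygous for the recessive Klotho mutation and labelled as in renal failure, held 5 males and 4 females. The controls, labelled as having healthy renal function, were 3 males heterozygous for the mutation (+/Kl) and 4 wild-type females (+/+). Control genotype therefore went with sex and with the table, and these 3 cannot be told apart. The labels do not state that every library came from a separate animal, so any spread or p-value covers these libraries only, and the spread may be technical.

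Klotho is a membrane protein of the distal tubule, the co-receptor for the bone hormone FGF23, and mice that lack it retain phosphate. The 9 genes share no pathway. Acy3 and Ldc1 encode enzymes of amino acid derivatives, Mfsd2a and Sec14l3 proteins that carry lipids, Rnf24 and Chrna4 membrane proteins, Nhp2 and Eif1ad4 proteins of RNA and translation families, and Perm1 a regulator of genes for energy metabolism. In mouse kidney many proximal tubule genes differ in level between males and females, with Kap, the kidney androgen-regulated protein, as the best known case.

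Values were TPM, reads relative to gene length and library total, where the length was the genomic span of the gene with introns. By estimate a library held 21.5 to 31.7 M reads. Kl itself had 0.0235 to 0.265 TPM in Kl/Kl males, against 4.14 to 15.1 TPM in control males, and 0.0268 to 0.518 TPM in Kl/Kl females, against 9.18 to 21.2 TPM in control females, so the groups did not overlap in either sex. Female Kl/Kl replicate 3 stood apart from the other libraries. Its median Spearman correlation with them was 0.744, against 0.912 for male control replicate 3, the next lowest. In that female library 6 of 6 heart muscle markers summed to 1864 TPM, 5 of 5 airway markers to 986 TPM and 4 of 4 adipocyte markers to 1182 TPM, while 5 of 5 markers of the loop, distal tubule and collecting duct summed to 2.10 TPM. The 10 proximal tubule markers summed to 97.0 TPM there, of which Pck1 had 76.0 and Aqp1 13.4 TPM, while Slc34a1, the proximal tubule phosphate transporter, had 0.343 TPM. The kidney tubule markers were thus far below those of the other libraries, and female values are given with and without it. In the other 15 libraries Slc34a1 lay between 89.3 and 255 TPM. Markers of other tissues were higher in some Kl/Kl males too. Adrenal cortex markers (4 of 4) summed to 7.35, 46.1, 0.900, 1.44 and 0.950 TPM in the Kl/Kl males, against 0.418 to 0.459 TPM in control males. Adipocyte markers summed to 40.5, 26.2, 31.1, 12.9 and 9.59 TPM in the Kl/Kl males, against 7.75 to 12.8 TPM in control males. The 10 proximal tubule markers summed to 1235 to 2060 TPM in Kl/Kl males and 4966 to 5369 TPM in control males, and without Kap the 9 others summed to 1082 to 1888 TPM in Kl/Kl males and 885 to 1771 TPM in control males. Pck1, a gluconeogenesis gene, made up much of that sum. Without it, a choice made after its values were seen, the remaining 8 summed to 357 to 762 TPM in Kl/Kl males and 567.6 to 990 TPM in control males. They summed to 678 to 911 TPM in Kl/Kl females without replicate 3 and 911 to 1120 TPM in control females. Of the 8, Slc22a6 had 15.7 to 45.2 TPM in Kl/Kl males, against 57.7 to 134 TPM in control males. Slc7a13 had 1.39 to 3.49 TPM, against 16.5 to 42.1 TPM, so both were lower in Kl/Kl males. The others of the 8 overlapped between the male groups. Aqp1, for example, had 98.4 to 135 TPM in Kl/Kl males, against 32.1 to 119 TPM in control males. The 5 markers of the loop, distal tubule and collecting duct summed to 401 to 492 TPM in Kl/Kl males, above the 124 to 355 TPM of control males. In females without Kl/Kl replicate 3 they overlapped, at 429 to 481 TPM in Kl/Kl and 372 to 539 TPM in controls. The part of these markers in the results was not tested. In whole kidney, fewer cells of a type and less RNA per cell cannot be told apart.

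Of the 9 genes, 8 had male groups that did not overlap, with Kl/Kl lower, and Perm1 was the exception. Over all 8439 genes tested in males, 4.4% had groups apart in that direction. In females the groups did not overlap, with Kl/Kl lower, for 5 of the 9 genes, against 3.54% of 8596 genes, and Rnf24, Nhp2, Eif1ad4 and Sec14l3 overlapped. Without female Kl/Kl replicate 3 the count was 6 of 9, against 3.9% of 8748 genes, because Sec14l3 no longer overlapped. Since the genes were picked on this contrast, nothing is read from these shares. The median difference of the 9 genes on the log2(TPM + 1) scale was -1.76 in males, where all genes tested had a median of 0.19, and -1.06 in females, where it was -0.16. Without female Kl/Kl replicate 3 the median of the 9 was -0.84 and that of all genes 0.06. The mean of Kl/Kl lay below that of controls for 9 of 9 genes in males, but for 6 of 9 in females, and for 7 of 9 without that library. In females Nhp2 was not lower on average, and Eif1ad4 had too few reads for a loss to be seen.

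**Figure D1:**
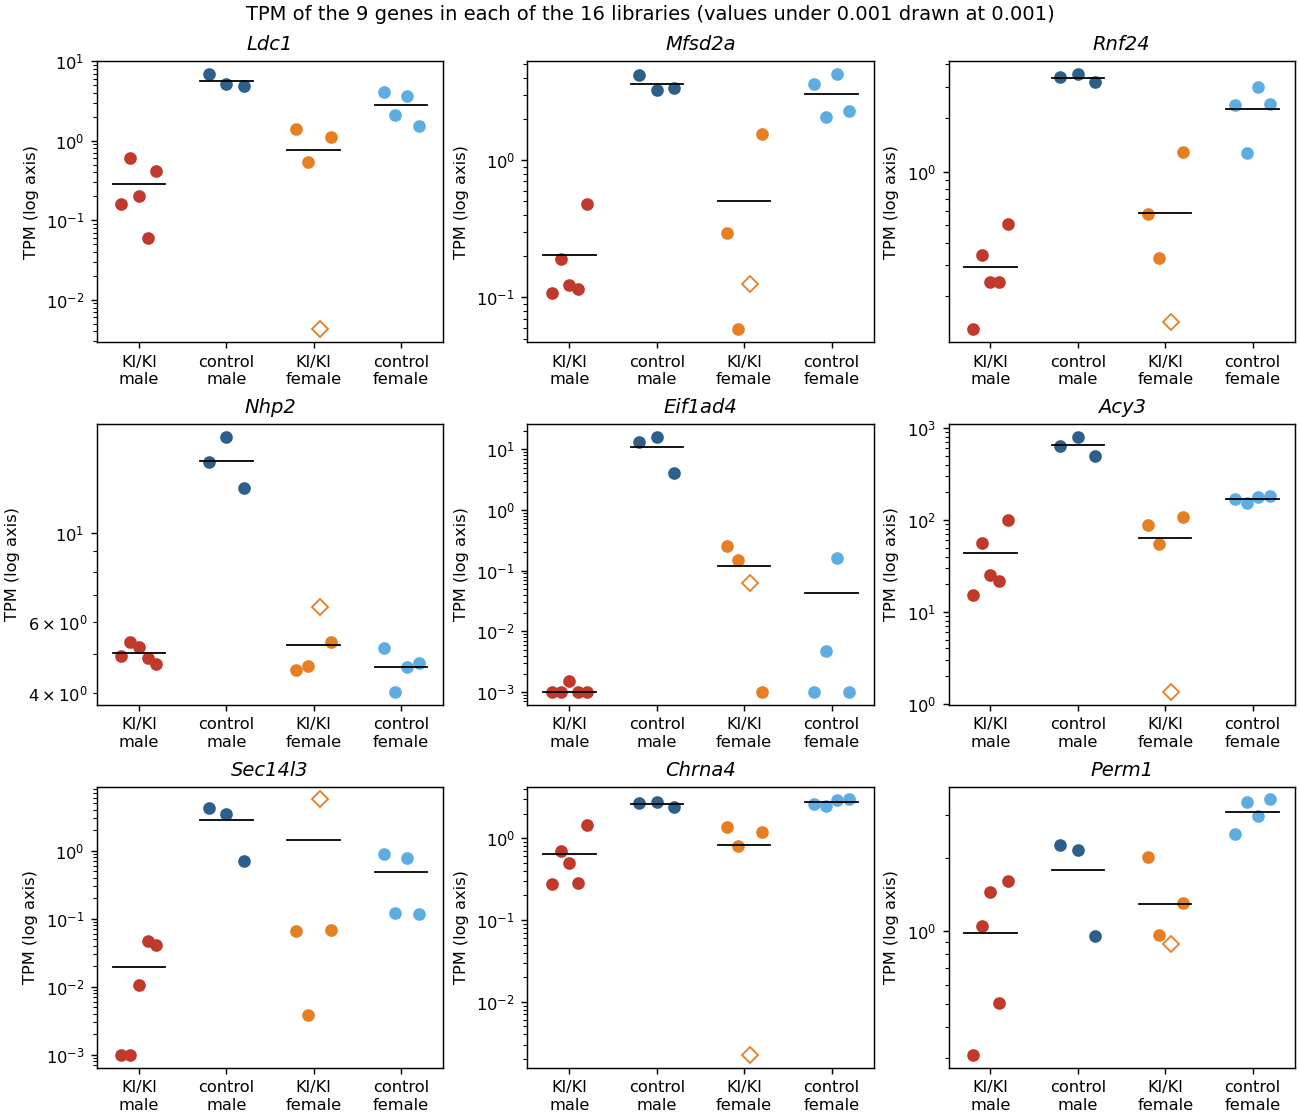
TPM on a log axis for the 9 genes in each library, with 5 Kl/Kl males, 3 control males, 4 Kl/Kl females and 4 control females from left to right. Points are libraries, lines are group means, the open diamond is female Kl/Kl replicate 3, and values under 0.001 are drawn at 0.001. In males Kl/Kl lies below control without overlap in every panel but that of Perm1. In females Nhp2 shows no such gap, and Eif1ad4 has too few reads to show one.

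Acy3 (ENSMUSG00000024866, chromosome 19, 4036570 to 4040008, plus strand, mm39) encodes aminoacylase 3, a proximal tubule enzyme that removes the acetyl group from mercapturates, the end products of glutathione conjugation. Acy3 had 15.2, 55.7, 25.1, 21.5 and 101 TPM in the 5 Kl/Kl males, against 645, 807 and 495 TPM in the 3 control males. Every Kl/Kl male lay below every control male, and the means were 43.6 ± 35.5 TPM and 649 ± 156 TPM (SD, n = 5 and 3), so that Kl/Kl stood at 6.72% of control. Kl/Kl females had 88.8, 54.6, 1.34 and 107 TPM, against 168, 153, 179 and 184 TPM in control females. All 4 Kl/Kl females were lower, the lowest being replicate 3. Without it the mean was 83.5 ± 26.6 TPM in Kl/Kl females and 171 ± 13.9 TPM in control females (SD, n = 3 and 4), which is 48.9% of control. Tbx10, a T-box gene that starts 2744 bp from Acy3 on the same strand, averaged 0.11 ± 0.148 TPM in Kl/Kl males and 0.86 ± 0.323 TPM in control males (SD, n = 5 and 3). In females Tbx10 was at most 0.222 TPM in any library. The promoter of Acy3 is shown because its male difference of -4.17 on the log2(TPM + 1) scale was the largest of the 8 genes with reads in both male groups. The RefSeq window, 250 bases before to 50 after the start site on GRCm38.p6 (chr19:3986320-3986619, plus strand), holds a TATA box 30 bases before the start, in capitals.
Acy3: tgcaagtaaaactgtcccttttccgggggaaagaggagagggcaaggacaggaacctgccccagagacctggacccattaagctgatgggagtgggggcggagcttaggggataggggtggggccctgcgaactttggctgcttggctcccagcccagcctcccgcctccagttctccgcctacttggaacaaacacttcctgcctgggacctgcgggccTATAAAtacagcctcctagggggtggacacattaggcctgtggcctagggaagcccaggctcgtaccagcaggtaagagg

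Ldc1 (ENSMUSG00000023120, chromosome 4, 130102902 to 130116195, minus strand) encodes leucine decarboxylase, a relative of ornithine decarboxylase that is known from mouse kidney. Kl/Kl males had 0.159, 0.603, 0.204, 0.0591 and 0.418 TPM of Ldc1, against 6.94, 5.24 and 4.85 TPM in control males. The gap between the highest Kl/Kl male and the lowest control male was wide, and the means were 0.289 ± 0.219 TPM and 5.68 ± 1.11 TPM (SD, n = 5 and 3), or 5.08% of control. Kl/Kl females had 1.41, 0.541, 0.00426 and 1.12 TPM, against 4.13, 2.12, 3.65 and 1.52 TPM in control females. The female groups came close, since the highest Kl/Kl value was 1.41 and the lowest control value 1.52 TPM. Without replicate 3 Kl/Kl females stood at 36% of control. The promoter window of Ldc1 (RefSeq, GRCm38.p6, chr4:130222246-130222545, minus strand) is set beside that of Acy3 as the other enzyme gene of the 9. Capitals mark a match to GTTAAT, a part of the HNF1 motif, on the opposite strand.
Ldc1: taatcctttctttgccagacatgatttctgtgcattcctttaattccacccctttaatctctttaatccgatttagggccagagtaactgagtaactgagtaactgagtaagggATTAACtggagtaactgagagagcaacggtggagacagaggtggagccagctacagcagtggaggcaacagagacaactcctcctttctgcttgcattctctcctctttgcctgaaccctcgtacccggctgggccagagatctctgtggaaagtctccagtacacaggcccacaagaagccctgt

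Mfsd2a (ENSMUSG00000028655, chromosome 4, 122840643 to 122854982, minus strand) encodes a sodium-dependent transporter of lysophosphatidylcholine that brings omega-3 fatty acids into cells, best known at the blood-brain barrier. In Kl/Kl males Mfsd2a had 0.108, 0.190, 0.123, 0.116 and 0.477 TPM, against 4.19, 3.24 and 3.34 TPM in control males. Kl/Kl males stood at 5.65% of control, and the value without replicate 5 was lower still, with a mean of 0.134 TPM in place of 0.203 ± 0.157 TPM (SD, n = 5). Kl/Kl females had 0.295, 0.0584, 0.124 and 1.55 TPM, against 3.57, 2.08, 4.27 and 2.29 TPM in control females. The groups did not overlap, but replicate 4 carried most of the Kl/Kl female mean of 0.506 ± 0.700 TPM (SD, n = 4), which was 0.159 TPM without it. Without replicate 3 Kl/Kl females stood at 20.7% of control. The noncoding gene 4933421A08Rik lies 120 bp from Mfsd2a on the other strand and averaged 0.0621 ± 0.0336 TPM in Kl/Kl males and 0.375 ± 0.0969 TPM in control males (SD, n = 5 and 3), 16.5% of control. Whether strand was used in counting is not given in the sources used here.

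Rnf24 (ENSMUSG00000048911, chromosome 2, 131139984 to 131194813, minus strand) encodes a membrane protein with a RING finger, the domain of many ubiquitin ligases. Kl/Kl males had 0.131, 0.342, 0.241, 0.242 and 0.509 TPM of Rnf24, against 3.41, 3.54 and 3.17 TPM in control males. Control males were close together, and Kl/Kl males stood at 8.68% of their mean. In Kl/Kl females Rnf24 had 0.578, 0.326, 0.143 and 1.29 TPM, against 2.38, 1.27, 3.00 and 2.39 TPM in control females. Replicate 4 of the Kl/Kl females lay just above the lowest control female, so the groups overlapped. The Kl/Kl female mean was 0.584 ± 0.503 TPM (SD, n = 4) with every library and 0.349 TPM without replicate 4. The span of Rnf24 overlaps 3 other genes. Pank2 (1126 bp) averaged 1.04 ± 0.0993 TPM in Kl/Kl males and 0.885 ± 0.273 TPM in control males, and Snrpert (280 bp) 42.3 ± 6.20 TPM and 39.4 ± 6.02 TPM (SD, n = 5 and 3 for both genes). The noncoding Gm14233 (1292 bp) had reads in males only in control replicate 3, with 3.71 TPM.

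Mfsd2a and Rnf24 had similar values relative to controls, but most of that likeness lies in the contrast that chose both genes. Likeness was measured as the root-mean-square difference of log2(TPM + 1), each value taken relative to the controls of its table. It was taken over the 15 libraries without female Kl/Kl replicate 3 and among 6388 genes. Those genes averaged at least 1 TPM in the male and in the female libraries used, and genes with provisional names such as Gm or Rik were left out. Rnf24 was the second nearest gene to Mfsd2a, and Mfsd2a the third nearest to Rnf24, at 0.28 in both cases. Their promoter windows (RefSeq, GRCm38.p6, Mfsd2a chr4:122961139-122961438 and Rnf24 chr2:131352843-131353142, both minus strand) are shown together for that reason. Capitals in Rnf24 mark a match to the NRF1 motif on the opposite strand, 115 bases before the start site, and the Mfsd2a window held none of the motifs searched.
Mfsd2a: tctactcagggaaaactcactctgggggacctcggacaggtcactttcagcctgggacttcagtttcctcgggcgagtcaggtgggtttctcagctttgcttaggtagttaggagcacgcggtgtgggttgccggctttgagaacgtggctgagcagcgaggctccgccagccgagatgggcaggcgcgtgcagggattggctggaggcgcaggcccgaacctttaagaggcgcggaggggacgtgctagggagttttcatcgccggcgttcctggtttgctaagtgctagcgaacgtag
Rnf24: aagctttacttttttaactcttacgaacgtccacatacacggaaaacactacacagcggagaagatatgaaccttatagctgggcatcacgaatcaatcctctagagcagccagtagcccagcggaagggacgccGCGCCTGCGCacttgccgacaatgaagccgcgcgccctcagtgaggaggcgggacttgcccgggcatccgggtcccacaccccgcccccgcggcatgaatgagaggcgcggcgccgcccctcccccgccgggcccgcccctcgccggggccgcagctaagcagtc

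Windows were available for 8 of the 9 genes, and 8 motifs were searched on both strands. GTTAAT, a part of the HNF1 motif, was in the windows of Ldc1 and Perm1 and in 7.1% of 32851 windows of the same length. The TATA box TATAAA was in that of Acy3 and in 13.6% of all windows. The NRF1 motif was in that of Rnf24 and in 4.6% of all windows. AGAACA, only a part of the androgen receptor motif, was present in 19% of all windows and in 0 of the 8. Also in 0 of the 8 were the E-box CACGTG (7.15% of all windows), the HNF4 motif AAAGTCCA (1.25%), the ERR motif TCAAGGTCA (0.423%) and the nuclear receptor direct repeat (0.0396%). A match is a run of letters and not a shown site, and its absence says only that these letters are not in this window. No match to these motifs overlapped another.

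Sec14l3 (ENSMUSG00000054986, chromosome 11, 4014841 to 4027737, plus strand) encodes a SEC14-like lipid-binding protein known from airway epithelium. Sec14l3 had no read in Kl/Kl male replicates 1 and 2 and 0.0105, 0.0474 and 0.0408 TPM in replicates 3, 4 and 5, about 34 reads in all, against 4.28, 3.48 and 0.718 TPM in control males. Kl/Kl males stood at 0.698% of control, and the third control male lay far below the other two. The Kl/Kl male mean was 0.0197 TPM, and 0.0128 TPM without replicate 4. In Kl/Kl females it had 0.0656, 0.00382, 5.73 and 0.0692 TPM, against 0.909, 0.121, 0.788 and 0.118 TPM in control females. The highest of all 16 values was thus in female Kl/Kl replicate 3, the library with high airway and heart markers, and their part in it was not tested. With that library the Kl/Kl female mean was 303% of control, and without it 9.55%, with every Kl/Kl value below every control value. Sec14l4, a paralog 16816 bp away, had at most 0.0902 TPM in any library.

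Chrna4 (ENSMUSG00000027577, chromosome 2, 180660173 to 180685340, minus strand) encodes the alpha subunit of a nicotinic acetylcholine receptor best known from brain. Kl/Kl males had 0.277, 0.695, 0.50, 0.284 and 1.46 TPM, against 2.73, 2.80 and 2.39 TPM in control males. The means were 0.643 ± 0.487 TPM and 2.64 ± 0.216 TPM (SD, n = 5 and 3), 24.3% of control, with no overlap. Kl/Kl females had 1.36, 0.810, 0.00225 and 1.19 TPM, against 2.63, 2.46, 2.97 and 3.00 TPM in control females. Without replicate 3 the Kl/Kl females stood at 40.5% of control, again with no overlap. The 4 neuron markers summed to at most 0.0339 TPM in Kl/Kl males and 0.0129 TPM in control males, and without female Kl/Kl replicate 3 to at most 0.0173 TPM in Kl/Kl females and 0.0418 TPM in control females. The nearest gene, Col20a1, lies 16 bp away on the other strand and averaged 0.173 ± 0.0571 TPM in Kl/Kl males and 0.138 ± 0.0240 TPM in control males (SD, n = 5 and 3).

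**Figure D2:**
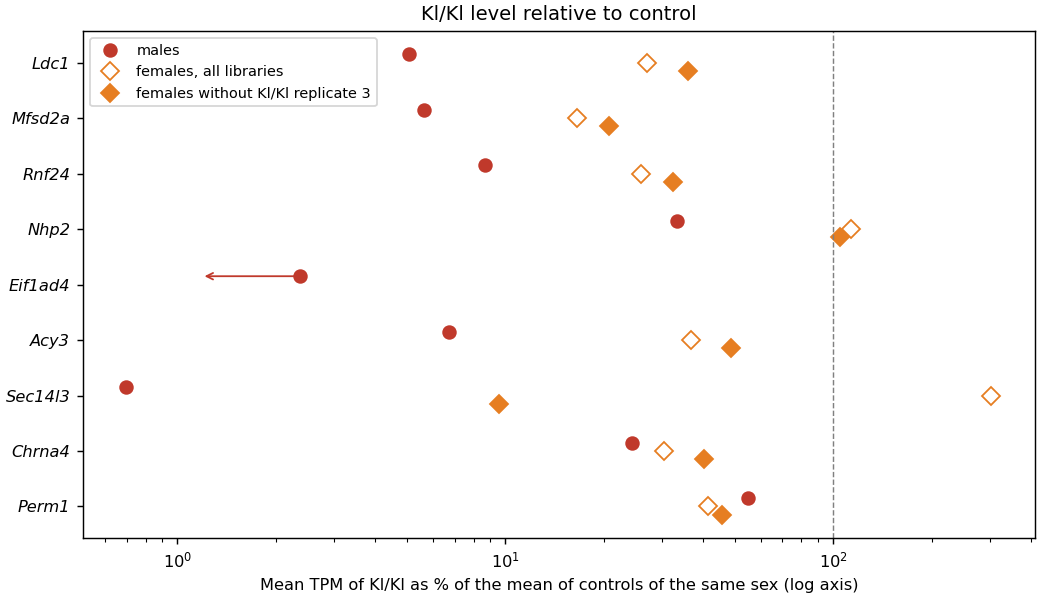
Mean TPM of Kl/Kl as a percentage of the control mean of the same sex, on a log axis, for males (circles), all females (open diamonds) and females without Kl/Kl replicate 3 (filled diamonds). Eif1ad4 in males is drawn at its upper bound of 2.36% with an arrow and is left out in females, where both groups averaged under 3 reads per library. Sec14l3 moves between 303% and 9.55% in females with that library, and Nhp2 lies near 100% in females.

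Nhp2 (ENSMUSG00000001056, chromosome 11, 51510562 to 51514542, plus strand) encodes a core protein of the H/ACA particles that guide pseudouridine formation in RNA and of telomerase. Nhp2 had 4.94, 5.37, 5.22, 4.89 and 4.73 TPM in Kl/Kl males, against 15.0, 17.3 and 12.9 TPM in control males. The Kl/Kl values were tight and stood at 33.4% of control. In Kl/Kl females Nhp2 had 4.57, 4.67, 6.55 and 5.36 TPM, against 5.17, 4.03, 4.66 and 4.75 TPM in control females. The female groups overlapped, and without replicate 3 the means were 4.87 ± 0.432 TPM and 4.65 ± 0.471 TPM (SD, n = 3 and 4), 105% of control. Of the 4 groups control males had the highest Nhp2, and the Kl/Kl males overlapped both female groups, although the tables were scaled separately. Rmnd5b overlaps Nhp2 by 45 bp on the other strand. It averaged 1.72 ± 0.137 TPM in Kl/Kl males and 2.63 ± 0.206 TPM in control males (SD, n = 5 and 3), 65.2% of control, and without replicate 3 it was at 101% of control in females. Nhp2 had 445.8 to 612.7 estimated reads in Kl/Kl males, against 1555.4 to 1906.3 in control males.

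Eif1ad4 (ENSMUSG00000113971, chromosome 12, 87862140 to 87862575, plus strand) is a short gene of a multi-copy family with an eIF1A-like domain. Kl/Kl males had 0 estimated reads in each of the 5 libraries, against about 148, 194.7 and 62.3 reads, or 13.0, 16.2 and 3.99 TPM, in control males. Set against a floor of 3 reads in each library, Eif1ad4 was at least 42.4-fold lower in Kl/Kl males. Females had 5.6 reads in all over the 4 Kl/Kl libraries, with at most 3.3 in any, and 2.2 over the 4 control libraries, with at most 2.1. Both groups averaged under 3 reads per library, so no fold is given. Eif1ad4 lies in a cluster of 9 Eif1ad genes within 729.7 kb. In 8 of the 9 the mean of control males exceeded the mean of each other group, and Eif1ad10 was the exception with about 0.4 of a read in all in control males. Of the 8, Eif1ad3, Eif1ad4 and Eif1ad7 had 405 to 1654.2 estimated reads in all in control males. Eif1ad2, Eif1ad6, Eif1ad8, Eif1ad15 and Eif1ad18 had only 7.7 to 98.3, so the count of 8 rests in part on few reads. Near-identical copies can share reads, so the split among these genes is uncertain.

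**Figure D3:**
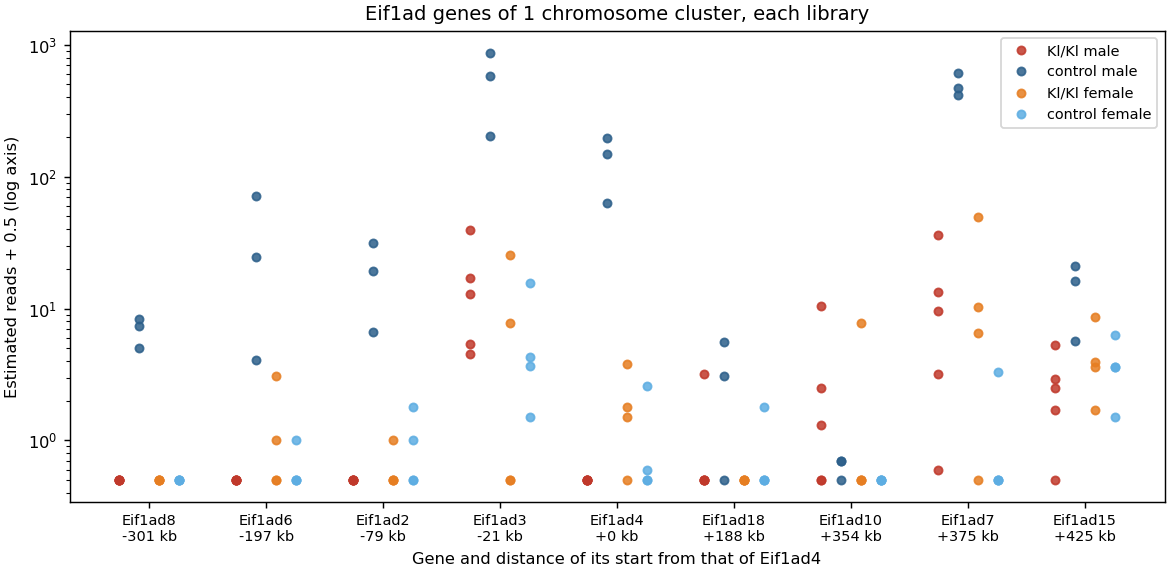
Estimated reads plus 0.5, on a log axis, of the 9 Eif1ad genes of the cluster, ordered by distance from the start of Eif1ad4. Each point is a library, coloured by group in the order Kl/Kl male, control male, Kl/Kl female and control female. Eif1ad3, Eif1ad4 and Eif1ad7 have at least 62.3 reads in every control male, and the other groups lie below them.

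Perm1 (ENSMUSG00000078486, chromosome 4, 156300325 to 156305765, plus strand) encodes a protein induced by PGC-1 and ERR that regulates mitochondrial genes in skeletal and heart muscle. Kl/Kl males had 0.308, 1.05, 1.45, 0.505 and 1.60 TPM, against 2.27, 2.16 and 0.948 TPM in control males. The groups overlapped through the third control male, and without it every Kl/Kl male lay below both controls, at 44.4% of their mean in place of 54.8%. In Kl/Kl females Perm1 had 2.01, 0.960, 0.884 and 1.30 TPM, against 2.51, 3.41, 2.99 and 3.49 TPM in control females. There was no overlap in females, at 41.5% of control with replicate 3 and 45.9% without it. Skeletal muscle markers (4 of 4) summed to 0.157 to 0.30 TPM in Kl/Kl males and 0.143 to 0.220 TPM in control males. In Kl/Kl females without replicate 3 they summed to 0.178 to 0.304 TPM, and in control females to 0.159 to 0.264 TPM, while replicate 3 reached 15.8 TPM.

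The controls of the 2 tables were also set side by side, with no test because the tables were scaled separately. Control males (+/Kl) lay above control females (+/+) without overlap for Ldc1, Rnf24, Nhp2, Eif1ad4 and Acy3, 5 of the 9, where 4.09% of 8356 genes averaging 1 TPM or more did. The ratio of the means was 3.80 for Acy3, 3.24 for Nhp2, 1.99 for Ldc1 and 1.49 for Rnf24. Control females lay above control males for Perm1, with a ratio of 0.577, as they did for 18.6% of the same genes. Mfsd2a, Sec14l3 and Chrna4 overlapped between the control groups. Kl/Kl males lay below control females without overlap for Ldc1, Mfsd2a, Rnf24, Acy3, Sec14l3, Chrna4 and Perm1, but not for Nhp2 and Eif1ad4, where 9.99% of 8656 genes did. Nothing is read from these shares, since the 9 were picked with the same control and Kl/Kl libraries. Sex, control genotype and table cannot be told apart in any of these.

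Within a group the libraries kept a partly shared order. Among Kl/Kl males, replicate 5 was highest and replicate 1 lowest for the same 5 genes, Mfsd2a, Rnf24, Acy3, Chrna4 and Perm1. Kl itself was also lowest in replicate 1, with 0.0235 TPM, and highest in replicate 5, with 0.265 TPM. Among Kl/Kl females without replicate 3, replicate 2 was lowest for 7 of the 9 genes and for Kl. Male control replicate 3 was lowest of its group for 8 of the 9 genes and had the lowest Kl there, 4.14 TPM. Among female controls, replicate 2 was lowest for 5 of the 9 and had the lowest Kl, 9.18 TPM. The same was counted over all genes. Of 8439 genes tested in males, 15.5% were highest in Kl/Kl replicate 5 and 13.7% lowest in replicate 1, and of 8748 genes 29.7% were lowest in Kl/Kl female replicate 2. Male control replicate 3, in contrast, was lowest for 87.1% of all genes tested, so 8 of 9 is close to what the library shows in general. Female control replicate 2 was lowest for 39.4% of 8596 genes. The 8 proximal tubule markers without Kap and Pck1 moved with these orders in part. They summed to 437 TPM in Kl/Kl male replicate 1 and 762 TPM in replicate 5, the highest of that group, with the lowest in replicate 4 at 357 TPM. They were lowest of their groups in Kl/Kl female replicate 2, without replicate 3, at 678 TPM, and in male control replicate 3, at 567.6 TPM. Among female controls, however, they were lowest in replicate 1, at 911 TPM, with 972 TPM in replicate 2. Kl/Kl male replicate 1 also had higher adrenal cortex and adipocyte markers than replicate 5. The part of tissue makeup in these orders was not tested.

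**Figure D4:**
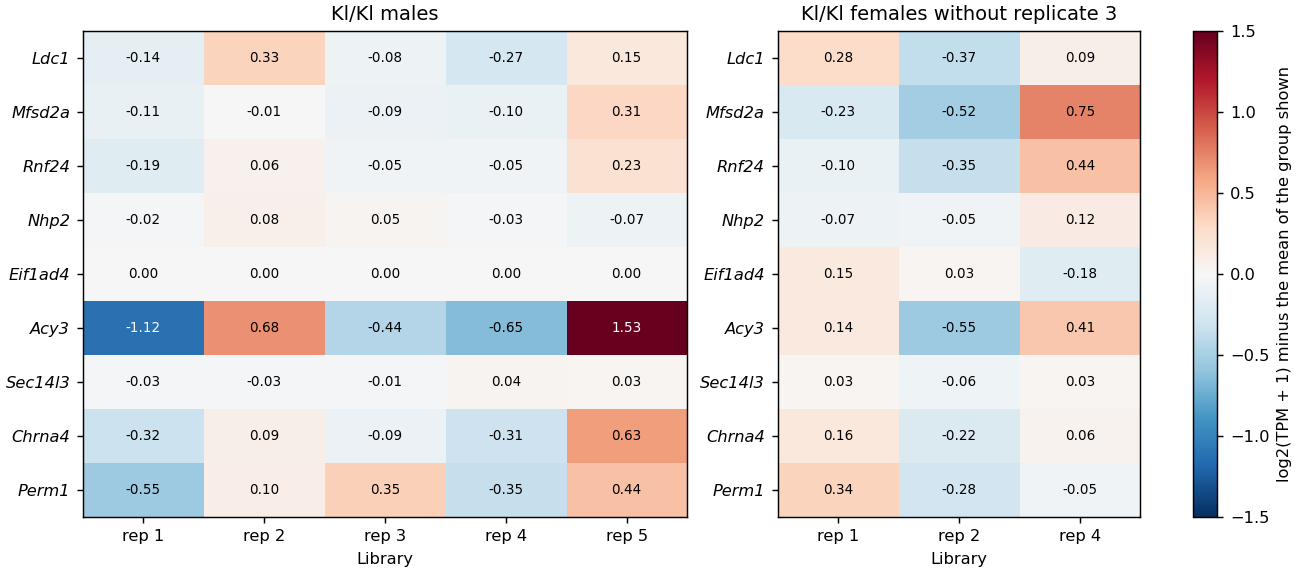
log2(TPM + 1) of the 9 genes in each Kl/Kl library minus the mean of the group shown, for the 5 males on the left and the 3 females without replicate 3 on the right. Red is above and blue below the group mean. Acy3 has the widest range in males, from -1.12 in replicate 1 to 1.53 in replicate 5, and replicate 2 of the females is low in most rows.

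The genes nearest to each of the 9 were found by the same root-mean-square measure and among the same genes. Genes averaging under 1 TPM in either sex were not searched, so Eif1ad3 and Eif1ad7, of the cluster of Eif1ad4, were left out. Eif1ad4 and Sec14l3 would not have passed this rule themselves. The nearest to Nhp2 was Ppt2, a lysosomal thioesterase gene, at 0.19. Ppt2 averaged 4.11 ± 0.861 TPM in Kl/Kl males and 12.1 ± 3.05 TPM in control males (SD, n = 5 and 3), and without replicate 3 it was at 89.7% of control in females. Cycs (cytochrome c) and Hsd17b11 followed for Nhp2. The nearest to Chrna4 was Aplnr, the apelin receptor gene, at 0.19, followed by Sectm1b and H2bc4. For Perm1 the order was Cela1 (0.21), Hsp90b1 and Slc22a13, and for Mfsd2a it was Mpv17l (0.27), Rnf24 and Slc22a19. Rnf24 had Treh (trehalase, 0.27), Eci3 and Mfsd2a, and Sec14l3 had Treh (0.23), Tyw3 and B4galt5. Ldc1 had Slc17a3, an organic anion transporter gene (0.36), then Aspdh and Mdk. Among the genes searched, Acy3 had none nearer than 0.51, the value of Cyp2a4, followed by Ces1f and Kap. Eif1ad4 had none nearer than 0.54 among them, the value of Ldhd, followed by Ces1f and Slc7a13. These are descriptions over shared libraries, and most of the likeness lies in the contrast that chose the 9 genes.

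Other genes of the same families and pathways were then counted in the fits over all genes. The 9 lists held 137 genes apart from the 9, of which 122 were in the tables and 61 passed the filter of a mean of at least 1 TPM in males. In males 2 rose and 9 fell by limma at a Benjamini-Hochberg adjusted p under 0.05, which is 18% of those tested, where 5.92% of all 8439 genes were called, 3.74% higher and 2.18% lower. Of the 9, Eif1ad3 and Eif1ad7 passed the filter only through control males, and without them 9 of 59 were called, or 15.3%, of which 7 were lower. The lists were chosen with earlier results of these data known, so nothing is read from these shares. In females 0 of 59 tested were called by limma, 4 had an unadjusted p under 0.05, and 0.0349% of 8596 genes were called. Without female Kl/Kl replicate 3 the count was again 0 of 59, with 13 at an unadjusted p under 0.05, where 0.103% of 8748 genes were called, 0.0572% higher and 0.0457% lower. A female gene that missed the threshold is not shown to be alike in both groups.

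The aminoacylase and mercapturate list around Acy3 held most of these calls. Of 17 genes tested in males 6 fell and 1 rose, with a median log2 difference of -0.92. Nat8f1, of the N-acetyltransferase family whose relative Nat8 makes mercapturates, had 4.61, 9.19, 14.9, 3.27 and 11.6 TPM in Kl/Kl males, against 54.5, 51.4 and 45.7 TPM in control males. Its log2 difference was -2.57 (SE 0.39, limma adjusted p = 0.00326), and that of its neighbour in the family, Nat8f2, -2.03 (SE 0.27, limma adjusted p = 0.00145). Acy1, which encodes the aminoacylase for other N-acetylated amino acids, had 17.4, 27.7, 24.2, 16.6 and 31.4 TPM in Kl/Kl males, against 73.2, 76.3 and 65.3 TPM in control males. Neither gene overlapped between the male groups, and Acy1 changed by -1.61 (SE 0.24, limma adjusted p = 0.00326). Ggt1, the gamma-glutamyl transferase of the glutathione breakdown path, fell, with a log2 difference of -1.20 (SE 0.25, limma adjusted p = 0.0199), but its adjusted p reached 0.0807 when a single library was left out. Nat8f3 and Lap3 fell and Ggt6 rose, with calls that were lost when 3, 6 and 7 of the 8 male libraries, each alone, were left out, at adjusted p of up to 0.0602, 0.108 and 0.0922 by limma. Nat8 itself averaged 118 ± 26.2 TPM in Kl/Kl males and 129 ± 18.6 TPM in control males (SD, n = 5 and 3) and was not called. The Nat8 genes are close paralogs that can share reads. In females without replicate 3 Acy1 averaged 32.6 ± 5.16 TPM in Kl/Kl mice and 80.1 ± 23.0 TPM in control mice (SD, n = 3 and 4), and its limma adjusted p was 0.0852.

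Around Ldc1, 1 of 9 polyamine and decarboxylase genes fell in males. This was Odc1, the ornithine decarboxylase gene and an androgen-responsive gene of mouse kidney, with 14.6, 18.2, 16.0, 11.2 and 19.3 TPM in Kl/Kl males, against 99.0, 152 and 35.7 TPM in control males. Every Kl/Kl male lay below every control male, with a log2 difference of -2.31 (SE 0.39, limma adjusted p = 0.00648). The third control male lay much nearer to the Kl/Kl males than the other two. Without a filter on low values the adjusted p of Odc1 was 0.0534. In females without replicate 3 Odc1 averaged 23.2 ± 4.57 TPM in Kl/Kl mice and 35.9 ± 3.63 TPM in control mice (SD, n = 3 and 4), with a limma adjusted p of 0.094.

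Around Eif1ad4, Eif1ad3 and Eif1ad7 of the same cluster passed the threshold as lower in males, out of 7 genes tested. Both passed the filter on low values only through the control males, so a call could go only 1 way, and their values are given as a description. Eif1ad7 had 0.403, 0.117, 0.0796, 0.0308 and 0.000998 TPM in Kl/Kl males, against 4.67, 5.73 and 2.98 TPM in control males. Eif1ad3 had 0.454, 0.151, 0.110, 0.0561 and 0.0344 TPM in Kl/Kl males, against 5.86, 8.33 and 1.5 TPM in control males. Neither overlapped between the groups. The translation factor genes of the same list gave no call, for example Eif1a, with 2.88 ± 0.411 TPM in Kl/Kl males and 2.01 ± 0.991 TPM in control males (SD, n = 5 and 3).

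The partners of Nhp2 gave 0 calls of 7 tested in males by limma, with 1 at an unadjusted p under 0.05 and a median log2 difference of 0.16. Nop10, which sits beside Nhp2 in the H/ACA core, averaged 36.9 ± 5.07 TPM in Kl/Kl males and 41.6 ± 9.80 TPM in control males (SD, n = 5 and 3). Nop56, of the box C/D particles, averaged 5.54 ± 0.787 TPM and 3.97 ± 0.310 TPM in the same groups. Of the SEC14-like carriers 1 of 2 tested rose in males. Sec14l1 had 4.34, 2.80, 2.78, 2.89 and 2.06 TPM in Kl/Kl males, against 1.62, 1.38 and 0.614 TPM in control males, a log2 difference of 0.86 (SE 0.21, limma adjusted p = 0.0391). Leaving out single libraries ended that call in 6 of 8 cases, with an adjusted p of up to 0.0821.

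The remaining lists gave no call by limma in males. For lysophospholipid and omega-3 lipid genes, around Mfsd2a, it was 0 of 8 tested, with 1 at an unadjusted p under 0.05. Fads1, a fatty acid desaturase gene, averaged 8.34 ± 1.03 TPM in Kl/Kl males and 8.74 ± 4.16 TPM in control males, and Spns1, a lysosomal lysophospholipid transporter gene, 8.10 ± 1.46 TPM and 8.20 ± 2.80 TPM (SD, n = 5 and 3). Membrane RING ligases gave 0 of 4, with 0 at an unadjusted p under 0.05, and Rnf167 averaged 22.1 ± 5.30 TPM in Kl/Kl males and 16.7 ± 3.31 TPM in control males. Partners and targets of PGC-1 and ERR, around Perm1, gave 0 of 7, with 2 at an unadjusted p under 0.05, and Esrra averaged 9.81 ± 2.51 TPM in Kl/Kl males and 12.5 ± 2.95 TPM in control males. No other nicotinic receptor subunit passed the filter, although 11 of 15 are in the tables. The highest, Chrnb1 of the muscle receptor, averaged 0.945 ± 0.138 TPM in Kl/Kl males and 0.437 ± 0.0194 TPM in control males, and Chrnb2, the usual partner of Chrna4 in brain, 0.460 ± 0.0923 TPM and 0.287 ± 0.0649 TPM (SD, n = 5 and 3).

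**Figure D5:**
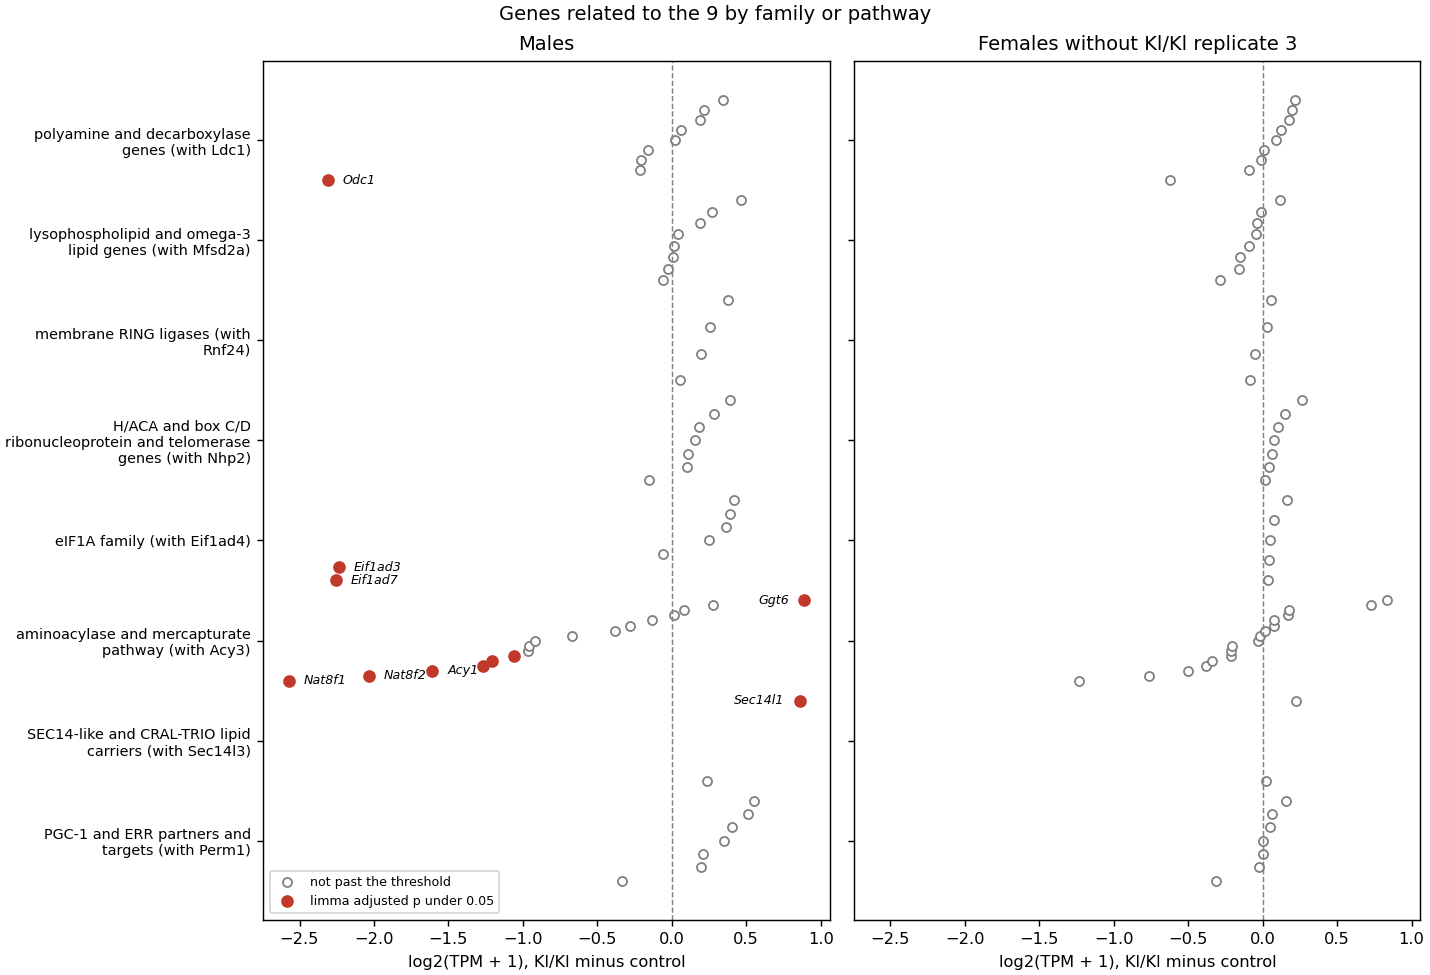
Difference in log2(TPM + 1), Kl/Kl minus control, of genes related to the 9, by list, in males (left) and in females without Kl/Kl replicate 3 (right). Filled points passed limma's adjusted p under 0.05, and names stand beside those that rose or fell by more than 1.5. In males 9 were lower and 2 higher, with Eif1ad3 and Eif1ad7 past the filter only through control males, and in females 0 were called.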

How the data were processed

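Polyadenylated RNA of 16 kidneys was sequenced with a directional library kit, per the labels. The authors deposited TPM values in 2 tables, 1 per sex. The submitters' processing notes name Partek and the build mm39. For the aligner, counting rule and use of strand the sources used here give nothing. The values showed a division by genomic span, an added 0.0001 read and equal column totals (285327 in males, 265288 in females), so TPM here falls for genes with long introns. Reads estimated from these steps were whole within 0.05 for 73.3% to 75.4% of low genes. They are estimates, so errors are SDs between libraries, and the floor of 3 reads covers counting error only.

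Groups came from the labels. Each sex was fitted on log2(TPM + 1) by limma 3.58.1 (a linear fit and moderated variances with a trend) in R 4.3.3. Genes entered at a mean of 1 TPM or more, with Benjamini-Hochberg adjustment over all genes and a threshold of 0.05. Log2 differences on this scale understate changes of low genes. The fit was tested on simulated data with independent noise of equal size for every gene. They held no shift of a whole library, such as that of male control replicate 3, so the test does not cover it. The 9 genes had no test, and all 9 passed the filter in males but only 7 in females (not Eif1ad4 and Sec14l3). Tables and plots used Python 3.11.15, pandas 2.3.3, NumPy 2.4.6 and matplotlib 3.10.9. Sequences are RefSeq windows of GRCm38.p6, while gene positions are those of the deposited tables, and the builds were not mixed. The 9 genes, lists and alternatives were chosen with earlier results of these data known. Named were the 9, Kl, the 3 nearest genes to each, overlapping and adjacent genes, and from each list up to 4 called genes or 2 by level. Nat8f3, Lap3, Ggt6, Nat8, Eif1a and the single genes given for the RING and Perm1 lists were named after their values were seen. The alternatives tried were a pseudocount of 0.1, other filters, scaling by the median of ratios, array weights, a replicate block and each library left out in turn.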

Additional observations from a re-analysis of the deposited data

Results flagged for a closer look

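In groups of 4 or 5 libraries, 27 in all, a library was marked where it lay far from the rest of its group relative to the range. Chance gives this in about 1 in 20 groups if values follow a normal distribution. That was not checked for TPM, so the rate may not hold here, and every mark was on the high side. Mfsd2a was high in Kl/Kl male replicate 5, with 0.477 TPM, and in Kl/Kl female replicate 4, with 1.55 TPM. Sec14l3 was high in Kl/Kl female replicate 3, with 5.73 TPM, the library with heart, airway and adipocyte markers. Eif1ad4 was set apart at levels under 3 reads in Kl/Kl male replicate 3, with 0.00153 TPM, and in female control replicate 3, with 0.164 TPM.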

How the results depend on the processing

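Genes called in males numbered 500 (316 higher, 184 lower). They numbered 322 with a filter of 5 TPM, 1154 with median-of-ratios scaling (455 higher, 699 lower), 227 with the replicate block and 2829 with array weights, and 185 to 909 when single libraries were left out, lowest without control replicate 2 and highest without control replicate 3. In females 3 genes were called, with 8 without a filter, 0 with the replicate block, 327 with array weights, and 2 to 9 when single libraries were left out, highest without Kl/Kl replicate 3. Related genes called numbered 11, with 7 without a filter, 6 with a filter of 5 TPM, 7 with the replicate block, 27 with array weights, and 6 to 11 when single libraries were left out. Median-of-ratios scaling moved the median of all genes by -0.18 in males and 0.17 in females. All 11 called related genes kept their call and direction under it. The median log2 difference of the 9 genes was -3.72 in males and -2.02 in females with a pseudocount of 0.1, against -1.76 and -1.06. In females the difference of Sec14l3 was 0.21, but -0.34 with a pseudocount of 0.1 and -0.46 without Kl/Kl replicate 3, the library that held the high value, the lowest of the values with single libraries left out, whose highest was 0.46 (without Kl/Kl replicate 2). The cause of the other shifts was not tested. Of 198 values of single genes among the 9, 180 moved by less than the spread between replicates, 16 moved further and 2 reversed. Filters and array weights were not applied to the 9, whose values are a description without a filter or fit. Same-numbered libraries deviated together little (correlations of -0.18 to 0.04 in males and -0.12 to 0.29 in females, highest for replicate 4). The replicate block was built from the number. Replicates 1 and 2 of each sex and female replicate 4 also had the same age in Kl/Kl and control. Depth limits Eif1ad4 in females (at most 3.3 reads in a library) and Sec14l3 in Kl/Kl males (at most 16 reads).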
